A study of Mus musculus with 20 samples.

Results

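Peaks of N6-methyladenosine (m6A) immunoprecipitation that lie just beyond the annotated ends of protein-coding genes were described in chromatin-associated RNA of mouse embryonic stem cells. A peak belonged to this set when its summit, the position of highest enrichment, lay in no GENCODE M21 gene on either strand (mm10), within 10 kb downstream of the 3' end of a protein-coding gene on the same strand, and more than 2 kb from any transcription start. The rule used positions and strand only, and no peak height or group difference. It took 11399 of the 437949 peaks in 10 libraries, between 1016 and 1408 per library. Merged by overlap over all libraries, these peaks formed 2449 regions downstream of 1620 genes.

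The libraries fell into 5 groups of 2. They were Mettl3 KO1 and Mettl3 KO2, which the labels name as separate knockouts, with the Mettl3 control, and Ythdc1 cKO, by its label a conditional knockout, with the Ythdc1 control. All groups were C57BL/6 embryonic stem cells in medium with LIF, CHIR99021 and PD0325901, the usual additions that hold such cells in the naive state. The alleles, how the cKO was induced, and whether a knockout line was a single clone are not stated by the labels. They also do not state that both libraries of a group were made from different cultures, so every p-value measures only the spread between libraries, which may be technical.

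Transcription by RNA polymerase II does not stop at the position where the messenger RNA ends. The polymerase passes the polyadenylation signal, the transcript is cut behind it, and the polymerase goes on for some distance while the downstream RNA is degraded from its free end. RNA from beyond the gene end can also come from a transcript that was not cut (readthrough), from a longer 3' untranslated region (3' UTR) than the annotated one, or from a separate transcript on the same strand. Chromatin-associated RNA is rich in such nascent RNA. Mettl3 is the catalytic subunit of the main nuclear m6A methyltransferase, and Ythdc1 is a nuclear protein that binds m6A. A peak list shows where immunoprecipitated fragments piled up above background and does not tell these kinds of RNA apart.

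The annotated ends of genes discussed here are shown first, since the hexamer AATAAA, or its commonest variant ATTAAA, marks the place of cutting. Each line gives 30 bases from the last 50 of the GENCODE M21 transcript that reaches the gene end, in the sense of the transcript, with the hexamer in capitals where a match was found.
Gm14288: aaatcAATAAAagaagacatagaggtgaga
Gm14440: aaatcAATAAAagaagacatagaggtgaga
Kdm5a: atagccAATAAAcaggagccacttttaacc
Rnf114: aatataAATAAAtttcataatttatccaac
Sesn2: aatagaAATAAAagtgctgaggtttgtttt
Txnip: tgacaaaAATAAAtgttcttttcttgtcta
Ascc2: gttggcAATAAAcaggtttcctgagtctca
Itga5: aagtgcAATAAAccccacccactgccccca
H6pd: attttcATTAAAaaattgttgcttgcaaac
Bud13: aggacccaggtgaactgtacagcgaagcta
Kdm2a: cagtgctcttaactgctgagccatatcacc
Gm14288 and Gm14440, which lie among Zfp genes on chromosome 2, carried the same 30 bases, and neither hexamer was in the last 50 bases of Bud13 and Kdm2a. Among the 1514 genes with a downstream region whose end could be read in this way, 56.7% held AATAAA in these last 50 bases on the sense strand, 14.7% only ATTAAA and 28.6% neither. Among 8519 other protein-coding genes with a peak in their exons, 65.1% held AATAAA and 20.3% neither. The genes with a region were not selected for an exon peak, so these sets are not fully alike. Among all 20308 protein-coding genes whose end could be read, 60.01% held AATAAA and 27.1% neither, closer to the genes with a region. For genes with a region within 1 kb of the end, 50.5% held AATAAA and 35.8% neither. No match says only that these letters are not in this window.

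For most regions no sequence of the peak itself was read, because a genome sequence was not used here. A few peaks reached into a RefSeq promoter window (GRCm38.p6, 250 bases before to 50 after a gene's start), in 9 regions, 8 of them at the RefSeq start of another gene. The stretches of 2 of these are shown, each with GGAC, while 4 of the 9 held GGAC and 5 did not. Each stretch runs 5' to 3' on the strand of the peak, with GGAC, the core of many m6A sites, in capitals.
Gm14412 region, minus strand, chr2:177307510-177307809, at the RefSeq start of Gm41987: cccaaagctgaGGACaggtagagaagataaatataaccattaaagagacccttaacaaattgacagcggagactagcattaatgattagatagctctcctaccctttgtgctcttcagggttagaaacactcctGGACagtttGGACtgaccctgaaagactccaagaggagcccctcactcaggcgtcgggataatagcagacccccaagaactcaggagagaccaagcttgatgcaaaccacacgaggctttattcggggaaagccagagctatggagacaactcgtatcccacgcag
Cldn34b3 region, plus strand, chrX:76273397-76273583, at the RefSeq start of Gm41896: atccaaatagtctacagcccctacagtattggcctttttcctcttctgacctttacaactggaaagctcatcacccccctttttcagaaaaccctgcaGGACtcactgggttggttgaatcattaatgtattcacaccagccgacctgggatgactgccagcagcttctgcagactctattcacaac
The Gm14412 stretch held 3 GGAC in 300 bases and 2 summits, and its region had a peak in all 10 libraries. The Cldn34b3 stretch held 1 GGAC and all 5 summits of its region, in both Ythdc1 cKO libraries, 1 KO2 library and both Mettl3 controls. Among those without GGAC were a stretch of 251 bases in the Tom1l2 region with 6 summits and one of 189 bases in the Tmem38a region with 2 summits. GGAC was searched on the strand of the peak only, and 65.6% and 48.2% of all RefSeq promoter windows of those lengths held it. Over all libraries, 15.5% to 19.3% of downstream peaks had their summit in some RefSeq gene. Here and below, a summit was placed in RefSeq genes by position without strand, so a gene on either strand counted. In a RefSeq model of the same gene lay 8.17% to 10.6% of the summits, and only for those did the annotated end depend on the annotation used.

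Downstream peaks made up a smaller share of the list in Mettl3 knockouts than in their controls. They were 2.62% and 2.53% of the peaks in KO1 and 2.68% and 2.64% in KO2. In the Mettl3 control they were 3.11% and 3.00%. All 4 knockout libraries lay below both controls. The mean was 2.62% ± 0.0649 in the knockouts (SD, n = 4) and 3.06% ± 0.0754 in the controls (SD, n = 2), a difference of -0.437 percentage points. The exact permutation test, two-sided over 15 splits, gave p = 0.0667, the smallest value it can give, and 0.267 after Benjamini-Hochberg adjustment over the 4 comparisons of this measure. Among the 30000 peaks of highest q in each library the difference was -0.274 points, at the same p. In numbers, KO1 had 1075 and 1037 downstream peaks and KO2 had 1194 and 1129, against 1408 and 1403 in the control.

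In the Ythdc1 pair the share was 2.29% and 2.25% in the cKO, against 2.45% and 2.42% in its control. The groups did not overlap, and the difference was -0.167 points. With 2 libraries against 2, the exact permutation test cannot give less than 0.333, which is the value found here. The counts themselves overlapped, at 1043 and 1024 peaks in the cKO and 1070 and 1016 in the control. Without peaks that RefSeq places in a gene the difference was -0.0956 points, among the 30000 peaks of highest q -0.0683, and within 5 kb of the gene end -0.309.

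**Figure D1:**
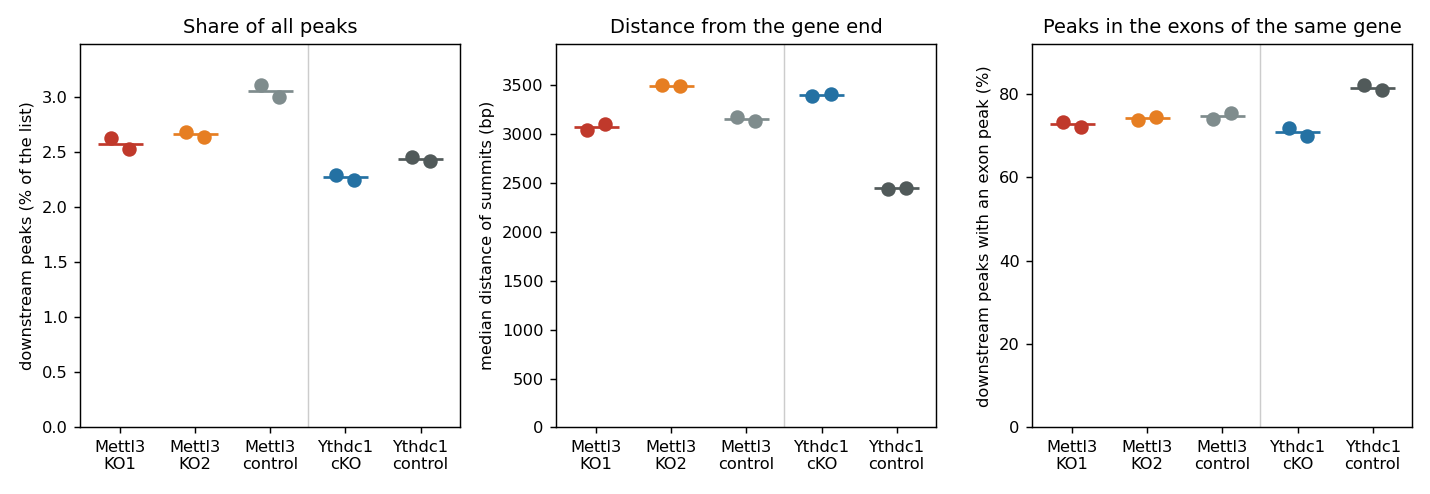
Share of downstream peaks in each list (%), median distance of their summits from the gene end (bp) and share whose gene had an exon peak in the same library (%), by group. Points are libraries, 2 per group, and horizontal lines are group means. The 4 Mettl3 knockout libraries lie between 2.53% and 2.68%, below the controls at 3.00% and 3.11%, and the cKO summits lie farther out than those of the Ythdc1 control.

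The shares of 3' UTR and of distal intergenic peaks were set beside these. Peaks in annotated 3' UTRs made up 9.04% and 8.95% of the list in KO1 and 10.6% and 10.8% in KO2. In the Mettl3 control they were 10.7% and 10.7%. The cKO had 9.84% and 9.79%, against 11.7% and 11.8% in the Ythdc1 control. The 3' UTR share thus also lay below the controls in KO1 and the cKO, and it was not tested. Distal intergenic peaks were those more than 10 kb from any GENCODE M21 gene, of any type and on either strand. They also lay more than 2 kb from any transcription start. They made up 3.55% and 3.52% of the list in KO1, 6.55% and 6.00% in KO2, against 8.05% and 8.34% in the Mettl3 control. In the cKO they were 13.9% and 13.6%, against 4.59% and 4.54% in the Ythdc1 control. The ratio of downstream to distal peaks was therefore 0.740 and 0.719 in KO1, 0.410 and 0.439 in KO2, against 0.386 and 0.360 in the Mettl3 control. On the log2 scale this was 0.58 higher in the 4 knockout libraries, with an exact permutation p of 0.133 (0.333 adjusted). In the cKO the ratio was 0.165 in both libraries, against 0.534 in both controls, a log2 difference of -1.69 (exact permutation p = 0.333). No adjusted value was below 0.267 for this or any other measure given per library here.

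The strand of the peaks gives a level for the same windows without the gene's own direction. The same rule with the strand turned round found 298 and 275 peaks in KO1, 454 and 400 in KO2, against 509 and 505 in the Mettl3 control, and 475 and 446 in the cKO against 377 and 352 in the Ythdc1 control. Peaks on the gene's strand exceeded those on the opposite strand in every library. The ratio was 3.61 and 3.77 in KO1, 2.63 and 2.82 in KO2, against 2.77 and 2.78 in the Mettl3 control. KO1 lay above both controls and KO2 on either side of them. In the Ythdc1 pair it was 2.20 and 2.30 in the cKO, against 2.84 and 2.89 in the control, a log2 difference of -0.35 with an exact permutation p of 0.333. Opposite-strand peaks include those downstream of a neighbouring gene that faces the first. With such convergent windows left out, the ratio was 6.67 and 6.86 in KO1, 3.72 and 4.10 in KO2, against 4.50 and 4.34 in the Mettl3 control, and 2.85 and 3.03 in the cKO, against 5.08 and 5.40 in the Ythdc1 control.

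Peaks on the gene's strand were densest within the first 2 kb in all groups. They were counted per Mb of sequence that could meet the rule, 115.7 Mb in all, in steps of 1 kb. In the first kb there were 13.4 ± 0.758 peaks per Mb in KO1, 13.1 ± 0.505 in KO2 and 18.1 ± 0.707 in the Mettl3 control (SD, n = 2 each). In the last kb, 9 to 10 kb from the end, there were 5.76 ± 0.148, 7.33 ± 0 and 7.85 ± 0.148. On the opposite strand the density in the first kb was 2.36 ± 0.202 in KO1, 3.25 ± 0.0505 in KO2 and 3.89 ± 0.354 in the control. The gene's strand therefore held 5.68, 4.04 and 4.66 times the density of the opposite strand next to the end and 1.62, 1.69 and 1.56 times at 9 to 10 kb.

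The fall with distance was shallower in the cKO. Its density was 12.9 ± 0.253 peaks per Mb in the first kb, against 17.9 ± 0.909 in the Ythdc1 control (SD, n = 2 each). At 9 to 10 kb it was 7.75 ± 0.148 in the cKO, against 4.56 ± 0.0741 in the control. The curves cross, and neither group's libraries overlapped the other's at either end of the window. The opposite strand differed at the far end too, with 5.34 ± 0.592 in the cKO and 3.51 ± 0.222 in the control.

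**Figure D2:**
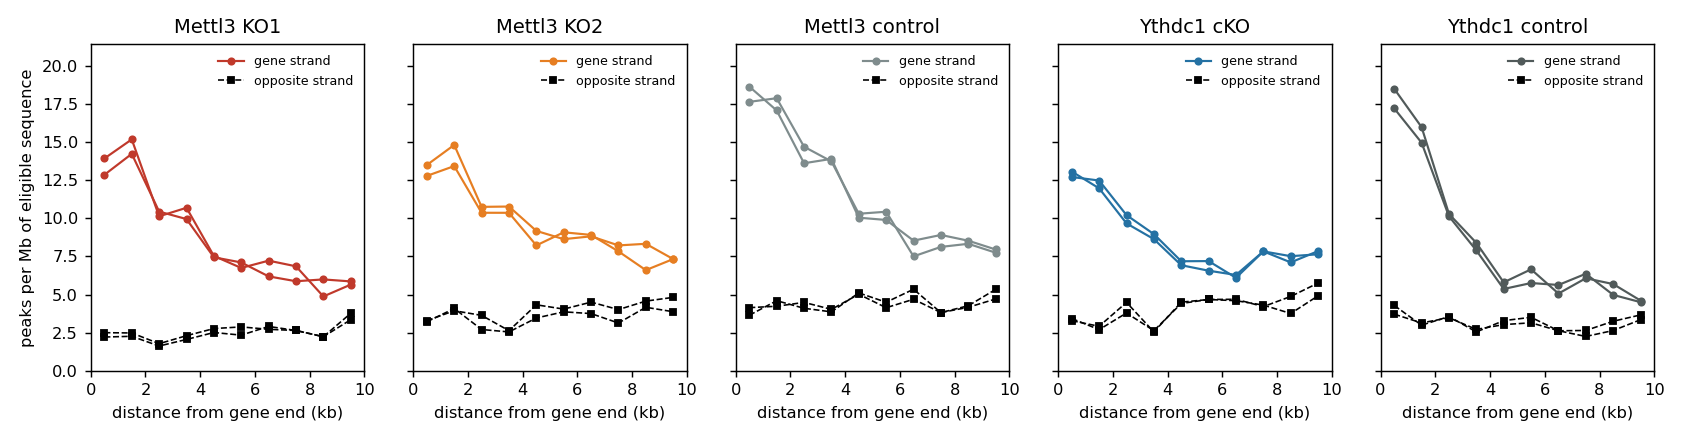
Peaks per Mb of eligible sequence by distance from the gene end in 1-kb steps, for each group, with 1 line per library. Solid lines are peaks on the gene's strand and dashed lines peaks on the opposite strand. The cKO falls from 12.9 to 7.75 peaks per Mb over the window and its control from 17.9 to 4.56.

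The median distance of the summits gives the same in 1 number. It was 3390 and 3408.5 bp in the cKO, against 2436.5 and 2453.5 bp in the Ythdc1 control, or 3399 ± 13.1 and 2445 ± 12.02 bp (SD, n = 2 each), a difference of 954.25 bp. The exact permutation test again gave 0.333, its smallest value. In the Mettl3 comparison the medians were 3039 and 3100 bp in KO1 and 3503.5 and 3494 bp in KO2, against 3177.5 and 3133 bp in the control. KO1 lay below both controls and KO2 above both, so the 4 knockout libraries together, 129 bp farther out on average, overlapped the controls (exact permutation p = 0.6). Within 5 kb of the gene end the cKO difference was 328.25 bp, and that of KO2 was 29.5 bp, with overlapping libraries.

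Most downstream peaks followed a gene that had peaks of its own. In the cKO, 71.9% and 70.02% of downstream peaks had a peak in the exons of the same gene in the same library, against 82.1% and 80.9% in the Ythdc1 control. The difference was -10.6 points, with no overlap between groups and an exact permutation p of 0.333. In the Mettl3 comparison the shares were 73.4% and 72.1% in KO1 and 73.8% and 74.5% in KO2, against 74.0% and 75.4% in the control. These overlapped, and the difference of -1.26 points had an exact permutation p of 0.267. It was larger within 5 kb of the gene end, at -3.05 points, and at 5 kb from any start, at -2.33 points, and in both the 4 knockout libraries lay below both controls (exact permutation p = 0.0667, the smallest possible, before adjustment).

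In height and width the downstream peaks were close to the lists they came from. Their median fold enrichment, the authors' value for each peak over its background, ranged from 4.19 to 4.96 between libraries, while the median over a whole list ranged from 4.39 to 4.77. Ranked by fold within its list, the median downstream peak stood at percentile 51.1 to 54.7 in the Mettl3 knockouts, against 48.7 and 47.9 in their controls. In the Ythdc1 pair it stood at 46.4 and 44.5 in the cKO, against 43.7 and 44.9 in the control. The median downstream peak was 255 to 285 bp wide, against 260 to 290 bp over a whole list. The widest was 6272 bp, in a Mettl3 control library. The background at the summit stood above the library's most common value for 28.6% to 38.9% of downstream peaks, for 8.62% to 19.4% of distal intergenic peaks and for 35.0% to 61.0% of 3' UTR peaks. In each library the downstream value lay between the other kinds. Counts just inside and outside the limits of the rule did not break sharply, with 43 to 76 peaks between 9 and 10 kb and 40 to 65 between 10 and 11 kb.

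Depth could be judged only indirectly from the lists. They held 40959 to 46735 peaks, and the commonest background was 14.92 to 20.03 reads on the plus strand. It was highest in the cKO libraries, at 20.03 and 19.27, against 17.77 and 15.69 in the Ythdc1 control. A deeper library can show weaker peaks, and its part in the cKO differences was not tested. The targeted genes could not be checked by expression in a peak list. Mettl3 had no exon peak in either KO1 library and 1 in each KO2 library, against 1 in each control, and Ythdc1 had 3 and 4 in the cKO against 3 and 3. Neither gene had a downstream peak in any library. Of 8 embryonic stem cell markers, 6 to 8 had an exon peak in each library. Of 12 fibroblast markers, 3 and 3 had one in KO1 and 4 and 4 in KO2, against 7 and 7 in the Mettl3 control, and 4 and 4 in the cKO against 3 and 3. Of 12 differentiation markers, 4 and 4 had one in KO1 and 6 and 6 in KO2, against 4 and 4 in the Mettl3 control, and 5 and 5 in the cKO against 4 and 4. No marker of these last lists had a downstream region, and the part of such cells in the results was not tested.

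Region by region, loss of downstream peaks in the Mettl3 knockouts was somewhat more frequent than over all regions. Of 1155 downstream regions with a peak in both controls, 203 (17.6%) were lost, meaning that all 4 knockout libraries lacked a peak there, while over all regions 13.1% were lost. In turn, 575 (49.8%) were kept, with a peak in all 6 libraries, against 57.7% over all regions. Of 645 downstream regions in every knockout library, 21 (3.26%) were gained, with no peak in either control, against 4.38% over all regions. Taken singly, KO1 lost 349 (30.3%, against 24.3% over all regions), kept 665 (57.7%, against 64.6%) and gained 76 (9.20%, against 12.3%). KO2 lost 284 (24.6%, against 18.4%), kept 705 (61.1%, against 70.3%) and gained 123 (13.5%, against 14.7%).

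Downstream regions stood between the intergenic and the gene-end RNA in this respect. A downstream region of both Mettl3 controls was absent from a knockout library in 33.9% ± 2.92 of cases, a distal intergenic one in 53.5% ± 12.3 and a 3' UTR one in 19.9% ± 6.52 (SD, n = 4 libraries). The KO1 and KO2 libraries lay apart. Downstream absence was 36.5% and 36.1% in KO1 and 30.5% and 32.5% in KO2. Distal absence was 64.1% and 64.1% in KO1 and 40.9% and 44.9% in KO2. For 3' UTR regions it was 25.9% and 25.3% in KO1 and 14.2% and 14.4% in KO2. Within each knockout library the downstream value lay below the distal one, by 10.5 to 28.0 points, and above the 3' UTR one, by 10.6 to 18.0 points. The exact sign-flip permutation test over 4 libraries gave p = 0.125 for both, the smallest it can give. It treats the 2 libraries of KO1, and those of KO2, as independent. Absence depended strongly on height. From the lowest to the highest of 5 height bins of the control peaks, it was 55.9%, 55.6%, 38.5%, 16.7% and 4.02% for downstream regions. The 3' UTR regions were taller, with 29.3% of them in the highest bin, against 19.9% of downstream regions. Within bins the mean gap to 3' UTR regions was 8.64, 14.3, 12.5, 7.88 and 2.79 points, ranging from 1.31 to 24.9 over bins and libraries. Downstream regions stayed below distal ones in each bin of each library, with differences between -34.3 and -4.35 points.

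In the Ythdc1 comparison the order was another one. Each cKO library lacked 27.1% of the 819 downstream control regions, 12.4% ± 0.189 of the distal intergenic and 16.6% ± 0.0572 of the 3' UTR ones (SD, n = 2). Downstream regions were the most often absent of these kinds, by 14.7 and 10.5 points on average, and an exact sign-flip test of 2 libraries cannot go below p = 0.5. Within bins of height the gaps were smaller for tall peaks. From the lowest to the highest bin, the mean gap to 3' UTR regions was 7.18, 3.83, 3.69, 6.21 and 1.93 points, and that to distal regions 24.8, 18.0, 16.1, 6.11 and 0.536 points. In the highest bin 1 cKO library lacked a smaller share of downstream than of distal regions, a difference of -0.68 points. Of the 819 regions, 177 (21.6%) were lost, against 17.9% over all regions, and 552 (67.4%) were kept, against 72.2%. Of 879 downstream regions in both cKO libraries, 246 (28.0%) were gained, against 28% over all regions. For distal intergenic regions 9.89% were lost and 69.3% gained.

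**Figure D3:**
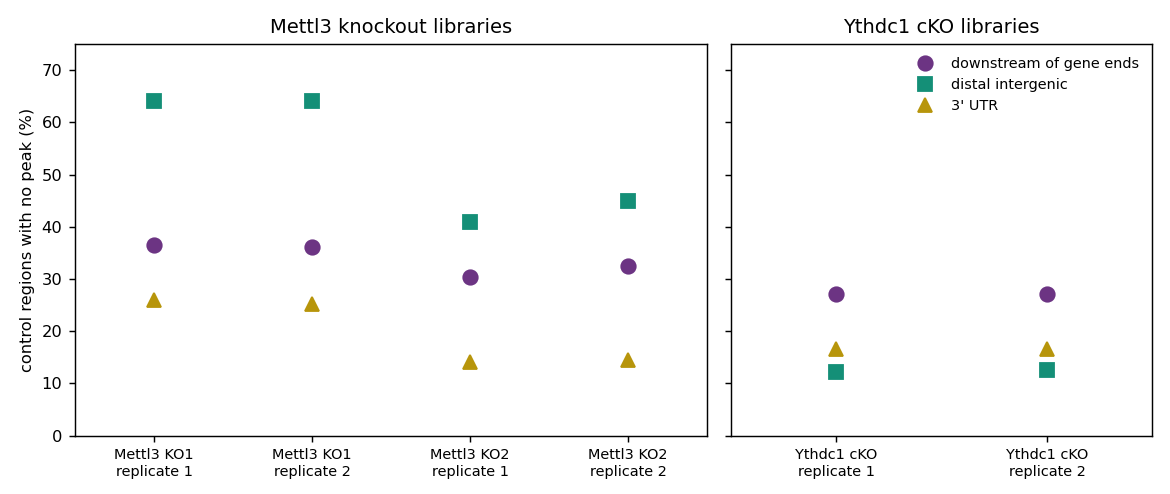
Share (%) of regions with a peak in both controls that had no peak in each knockout library, for regions downstream of gene ends, distal intergenic regions and 3' UTR regions. Each point is 1 library. Downstream regions lie between the other kinds in the 4 Mettl3 knockout libraries and above both, at 27.1%, in the cKO libraries.

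Gained and lost regions lay at different distances in the cKO. The median distance was 1822 bp for lost regions, 2521.5 bp for kept and 5015.5 bp for gained ones. Within 1 kb of the gene end lay 29.4% of the lost and 8.54% of the gained regions, and beyond 5 kb lay 16.9% and 50.4%. An exon peak of the same gene accompanied 84.7% of lost, 85.3% of kept and 58.1% of gained regions. In the Mettl3 comparison lost regions lay at a median of 3284 bp, kept regions at 2968 bp and the 21 gained regions at 2394 bp, and an exon peak accompanied 72.9%, 86.4% and 76.2%. Kept regions were wider than lost ones in both, with medians of 547 and 290 bp in the Mettl3 comparison and 516.5 and 274 bp in the Ythdc1 comparison, where a merged region widens with the number of peaks in it.

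**Figure D4:**
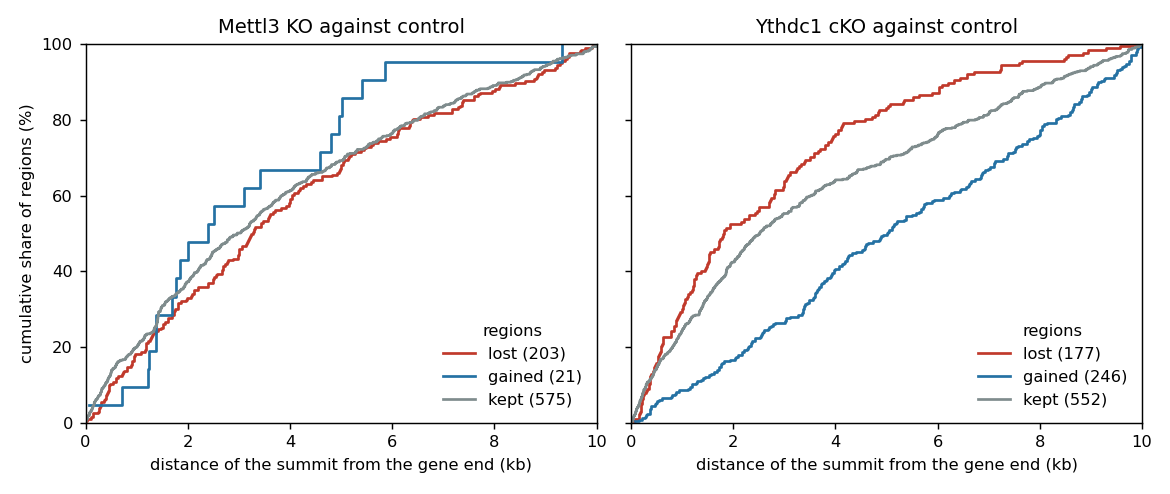
Cumulative share (%) of lost, gained and kept downstream regions by distance of the summit from the gene end (kb), for the Mettl3 and the Ythdc1 comparison, with the number of regions in the legend. In the Ythdc1 comparison the gained regions lie farthest out, with a median of 5015.5 bp, and the lost ones nearest, at 1822 bp.

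Most genes that lost a downstream region had exon peaks in all libraries, as did most genes that kept one. The 203 regions lost in Mettl3 knockouts followed 173 genes, of which 106 had no downstream peak in any knockout library. Of the 173 genes, 97 (56.1%) had an exon peak in all 6 libraries, against 63.9% of the genes with a kept region. An exon peak in all 4 knockout libraries was found for 98 of the 173, against 121 with one in both controls. In the Ythdc1 comparison the 177 lost regions followed 168 genes, 135 of them with no downstream peak in either cKO library, and 113 (67.3%) with an exon peak in all 4 libraries, against 69.7% of the genes with a kept region. Both cKO libraries had one for 114 of the 168, against 132 in both controls. The 246 gained regions followed 207 genes, 147 of them with no downstream peak in either control.

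The lost regions of highest control fold in the Mettl3 comparison followed Gm14496, Defb39, Rnf114, Dand5, Herpud1, Sesn2 and Tmem192. All values here are the authors' fold enrichments, which belong to their own list. The first Gm14496 region (chromosome 2, 182005507 to 182006501, plus strand, 1733 bp beyond the gene end) had 8.63 and 9.61 in the controls, and a second one 3292 bp out had 9.43 and 8.33. The region 6133 bp beyond Rnf114, a ubiquitin ligase whose gene end is printed above (chromosome 2, 167522212 to 167522440), had 6.67 and 7.15 in the controls. Dand5, a secreted antagonist of Nodal, had one 276 bp out with 6.46 and 6.86. Herpud1, a factor of protein degradation at the endoplasmic reticulum, had 7.94 and 6.26 at 1815 bp, and Sesn2, a stress-induced sestrin, had 5.79 and 6.36 at 2682 bp. Tmem192, a lysosomal membrane protein, had 5.75 and 6.26 at 8807 bp. The region of the beta-defensin gene Defb39, 7956 bp out with 7.67 and 8.35, lay in a RefSeq gene. All 4 Mettl3 knockout libraries lacked a peak at each of them, and Rnf114, Dand5, Herpud1 and Sesn2 are genes with an exon peak.

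Gained regions in the Mettl3 knockouts were few. The highest followed Eif2s3y, the Y-linked copy of a translation initiation subunit, with 9.52 and 6.84 in KO1 and 6.43 and 9.17 in KO2 and no peak in the controls, 5020 bp beyond the gene end and inside a RefSeq gene. Zscan12, a SCAN zinc finger gene, had 8.10, 5.72, 6.19 and 9.42 in KO1 and KO2 at 1388 bp. Ifnar1, a subunit of the type I interferon receptor, had 7.58, 5.20, 6.37 and 7.82 at 1857 bp, again within a RefSeq gene. The others were Parp11, Zfand6, Txnip, Rsrc2 and Olfr836, with folds between 4.002 and 10.3.

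Txnip, which encodes an inhibitor of thioredoxin, appeared on opposite sides of the comparisons. Its region on chromosome 3 (96571093 to 96571298, plus strand, 9317 bp beyond the gene end) had 4.22 and 5.95 in KO1 and 7.54 and 5.15 in KO2, and no peak in the Mettl3 controls. It had no peak in the cKO and 7.46 and 5.63 in the Ythdc1 control. The controls of the 2 comparisons thus differed from each other here, as did the knockouts.

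In the cKO, the lost region of highest control fold followed Ascc2, which encodes a ubiquitin-binding subunit of a helicase complex (chromosome 11, 4691599 to 4691938, 6021 bp out), with 15.7 and 11.2 in the Ythdc1 controls and no peak in the cKO. H6pd, a dehydrogenase of the endoplasmic reticulum, had 7.95 and 9.19 at 3223 bp. Bud13, Ddx18 and Nmd3 encode proteins of RNA splicing, ribosome assembly and export of the large ribosomal subunit. The Bud13 region lay 202 bp past an end without either hexamer and had 7.04 and 7.31. Ddx18 had 6.44 and 6.61 at 1213 bp, and Nmd3 had 6.29 and 6.59 at 8852 bp. Ctdspl2 and Ubqln4 had 5.85 to 7.31.

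The gained regions of highest fold in the cKO lay mostly far out. Kdm2a, a histone H3 lysine demethylase, had 8.74 and 9.59 in the cKO at 3909 bp (chromosome 19, 4310389 to 4310860, minus strand). Ltbp1, which binds latent TGF-beta, had 9.37 and 8.24 at 9518 bp. The kinase gene Mapk4 had 9.41 and 8.11 at 9906 bp, close to the limit of the window. Sult1d1, a sulfotransferase, had 7.26 and 9.11 at 9281 bp, and the olfactory receptor gene Olfr746 had 7.37 and 7.65 at 9189 bp, both without an exon peak. Gm4778, Fem1a and Pex26 completed the list with 7.25 to 8.88. None of these had a peak in the Ythdc1 controls.

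Most of the highest kept regions lay among neighbouring Zfp genes on chromosome 2. Gm14288, 509 bp beyond its end, had 18.3 and 16.5 in KO1 and 20.8 and 15.8 in KO2, against 24.1 and 21.7 in the Mettl3 control. Merged over the Ythdc1 libraries, it had 21.6 and 23.1 in the cKO, against 19.5 and 21.9 in the control. Gm14440, whose printed end is the same, had 18.7, 16.6, 23.4 and 23.7 in KO1 and KO2, against 21.5 and 20.2. Zfp966, Zfp968, Zfp969, Zfp970 and Gm14435 belonged to the same set. The authors' alignment could divide reads among such near-identical copies, so the assignment to a single copy is uncertain. Chromosome 2 held 12.5% of all downstream regions and 8.40% of protein-coding genes.

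Other kept regions followed single-copy genes. Kdm5a, a histone H3 lysine 4 demethylase (chromosome 6, 120451864 to 120452232, 7451 bp out), had 17.1, 22.3, 17.4 and 19.9 in KO1 and KO2, against 21.3 and 18.5 in the Mettl3 control. Slc25a10, a mitochondrial carrier, had 14.4, 13.5, 9.46 and 15.0 at 310 bp, against 18.9 and 15.7, where RefSeq has a gene. Itga5, the alpha subunit of the fibronectin receptor, had 18.4 and 19.3 in the cKO, against 17.7 and 18.5 in the Ythdc1 control, 189 bp out and again within a RefSeq gene. Tnrc6c, a microRNA silencing factor, had 10.9 and 12.4 in the cKO at 843 bp, against 17.4 and 19.2, and the transporter gene Abcc5 had 14.2 and 12.6 at 2815 bp, against 17.3 and 17.3. Folds of different lists have no common scale, and kept regions were named for a high fold in the controls.

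Across all 5 groups, 373 of the 2449 regions (15.2%) had a peak in all 10 libraries, against 18.1% of all 87498 regions, and 573 (23.4%) in 1 library only, against 21.6%. Regions with a peak in both libraries of a single group and in no other library numbered 28 for KO1, 59 for KO2, 95 for the Mettl3 control, 88 for the cKO and 52 for the Ythdc1 control. That was 1.14%, 2.41%, 3.88%, 3.59% and 2.12% of downstream regions, against 1.74%, 2.06%, 1.73%, 6.38% and 2.33% of all regions. A peak in all 4 control libraries and in none of the 6 knockout libraries was found at 14 regions (0.572%, against 0.371% of all regions). They included regions of Ak4, Alg9, Bod1l, Dand5, Dzip3, Fer, Fermt2, Glb1, Nmd3, Phkb, Psmf1, Thop1 and Xpo6, named after their values were seen. The Nmd3 region, 8852 bp out, had 5.35 and 5.22 in the Mettl3 controls and 6.29 and 6.59 in the Ythdc1 controls. The Thop1 region lay 43 bp beyond the gene end, with 3.85 and 5.01, and 7.51 and 5.03. In reverse, 4 regions (0.163%, against 0.0663% of all regions) had a peak in all 6 knockout libraries and in no control, those of Eif2s3y, Zscan12, Nckap5l and 2700062C07Rik. In the cKO, Eif2s3y had 4.47 and 3.06 and Zscan12 had 3.10 and 2.68.

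Of 1620 genes, 1118 had 1 region and 202 had 3 or more. Zfp946 had the most, 10 regions, followed by Gm20498 with 8 and by Ak4, D130040H23Rik, Ddx11, Tet2 and Zfp947 with 7 each. The Zfp946 regions ran from 367 to 9745 bp beyond the gene end, and the farthest, on chromosome 17 from 22465116 to 22468758, had 9.55, 7.72, 7.83 and 7.65 in KO1 and KO2 against 8.92 and 7.67 in the Mettl3 control, and 7.04 and 5.08 in the cKO against 6.77 and 6.53. Rows of peaks such as these reach through most of the window.

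Ak4 and Tet2 showed rows of peaks that depended on the library. Ak4 encodes a mitochondrial adenylate kinase. Its region 8235 bp out (chromosome 4, 101475093 to 101475408, plus strand) had 13.2 and 14.5 in KO1 and 16.9 and 19.6 in KO2, against 15.99 and 14.8 in the Mettl3 control. In the Ythdc1 pair it had no peak and 4.19 in the cKO, against 6.02 and 8.87. The region at 4857 bp, by contrast, had peaks only in the controls, 3.98 and 3.71 in Mettl3 and 6.19 and 3.07 in Ythdc1. It began at 101471710, close to a region from 101471005 to 101471609 with a peak in all 10 libraries. That neighbour had 5.18 to 13.6 in the knockout libraries and 3.57 to 10.9 in the controls. Whether adjacent peaks were divided differently between libraries was not tested. Tet2 encodes an enzyme that oxidizes methylated cytosine in DNA. Its downstream peaks numbered 4 and 4 in KO1 and 5 and 6 in KO2, against 7 and 7 in the Mettl3 control, and 1 and 0 in the cKO against 2 and 2. The Tet2 region 6156 bp out (chromosome 3, 133457042 to 133457635, minus strand) had 4.02, 3.97, 5.85 and 5.53 in KO1 and KO2, against 7.55 and 7.02, and no peak in any Ythdc1 library.

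**Figure D5:**
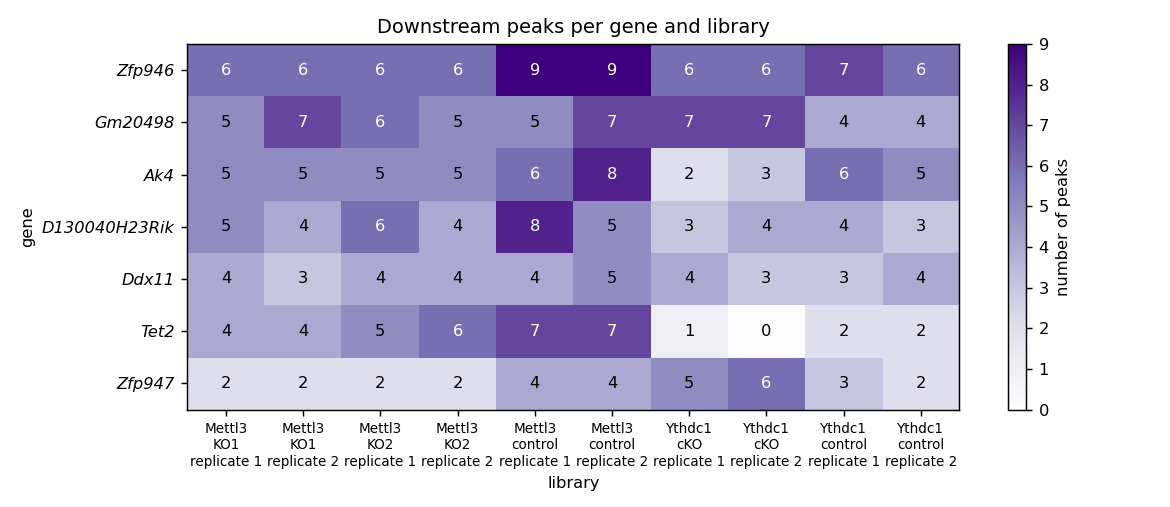
Number of downstream peaks per library for the 7 genes with 7 or more downstream regions. Colour and printed number give the count. Tet2 has 7 and 7 in the Mettl3 control and 0 to 2 in the Ythdc1 libraries, and Zfp946 has 6 to 9 in every library.

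Among gene lists, 7.38% of all 21951 protein-coding genes had a downstream region, or 12.8% of those with an exon peak in some library. Numbered zinc finger genes stood at 98 of 391 (25.1%). In the Mettl3 comparison 17 of their 145 control regions were lost (11.7%, against 17.6% of downstream and 13.1% of all regions). Kept were 88 (60.7%, against 49.8% and 57.7%). None of 91 knockout regions was gained, against 3.26% of downstream and 4.38% of all regions. In the Ythdc1 comparison 6 of 103 were lost (5.83%, against 21.6% of downstream and 17.9% of all regions), and 90 were kept (87.4%, against 67.4% and 72.2%). Of 124 cKO regions, 18 were gained (14.5%, against 28.0% of downstream and 28% of all regions). These shares were not compared within bins of height, on which absence depended strongly. The uncertain assignment of reads among similar copies applies here too. Of 26 pluripotency genes, 12 (46.2%) had a region, and all 26 had an exon peak in some library. Genes expressed in these cells can show peaks more readily, and levels of expression were not used here. Of their 8 control regions in the Mettl3 comparison 1 was lost (12.5%, against 17.6% of downstream and 13.1% of all regions). Of 7 in the Ythdc1 comparison 1 was lost (14.3%, against 21.6% of downstream and 17.9% of all regions). None was gained in either, against 3.26% and 28.0% of downstream regions. Counts this small do not set the list apart from those shares.

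Where a gene of a list had several regions, the values are of the region with the highest fold. Some pluripotency genes had a region in the libraries of the Mettl3 comparison and none in those of the Ythdc1 comparison. Klf5, a transcription factor of the naive state, had a region 9023 bp out (chromosome 14, 99323801 to 99324381, plus strand) with 10.99 and 11.7 in KO1 and 11.7 and 10.6 in KO2, against 6.62 and 6.07 in the Mettl3 control, and no peak in any of the 4 Ythdc1 libraries. Esrrb, a nuclear receptor of the same network, had 9.31, 8.40, 8.06 and 5.91 in KO1 and KO2 at 8650 bp, against 6.58 in 1 of the Mettl3 controls, and likewise none in the Ythdc1 libraries. Sall4, a zinc finger factor, had a peak 935 bp out in all 10 libraries, from 4.67 to 7.64. Zfp42 (Rex1) had 5 regions, and Fgf4, a growth factor made by these cells, had a region in all 10 libraries. Gbx2 had 3.35 and 3.67 in KO1 and 3.63 in 1 KO2 library, against no peak in the Mettl3 control, and 7.21 and 6.81 in the cKO against 5.66 and 4.03. Klf2 had peaks only in the Ythdc1 control, at 2.79 and 2.77. Dppa2, Dppa4, Nanog and Nr5a2 had a downstream peak in 1 library each, and Tdgf1 in 4.

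For the lists below, the share is followed by that among genes with an exon peak in some library. Over all protein-coding genes these were 7.38% and 12.8%. Of 29 cleavage, polyadenylation and termination factor genes, 3 had a downstream region (10.3%, and 11.1% of those with an exon peak). Ints1, a subunit of the Integrator complex, had a peak 226 bp beyond its end in all 10 libraries, from 2.20 to 4.20. Papolg, a poly(A) polymerase, had peaks in 6 libraries and Wdr33, which binds the polyadenylation signal, in 4. Of 23 nuclear RNA decay genes, 3 had one, namely Rbm7, Zcchc8 and Zfc3h1. Of 20 m6A writer, reader and eraser genes, 4 had one (20%, and 20% of those with an exon peak). Rbm15, which guides the methyltransferase to its targets, had 10.7, 8.31, 13.2 and 11.3 in KO1 and KO2 at 390 bp, against 11.95 and 10.9 in the Mettl3 control, and 9.59 and 13.3 in the cKO against 9.69 and 10.7. Igf2bp1 and Ythdf2, both m6A readers, had peaks in all 10 libraries, and Mettl14, the partner of Mettl3, only in the Ythdc1 control, at 4.14 and 4.53.

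Immediate early and heat shock genes had a region in 4 of 33 cases. That was 12.1%, and 14.3% of those with an exon peak, against 7.38% and 12.8% over all protein-coding genes. Btg2, an antiproliferative gene, had none in KO1 or KO2, against 4.75 and 7.08 in the Mettl3 control, 263 bp out, and 5.11 and 6.15 in the cKO against 3.84 in 1 control. Hsp90aa1 had peaks in all 10 libraries, Ier2 in 9 and Spry1 in 1. Replication-dependent histone genes, whose messenger RNA ends without polyadenylation, had a region in 3 of 67 cases (4.48%, and 3.70% of those with an exon peak). Hist1h3g had 6.67, 8.63, 8.11 and 11.7 in KO1 and KO2 at 1541 bp, against 5.58 and 5.59 in the Mettl3 control, and 4.38 in 1 cKO library against 4.15 and 6.01. Ribosomal protein genes had a region in 14 of 83 cases (16.9%, and 15.2% of those with an exon peak). Peaks in all 10 libraries were found for Rpl12, Rplp1, Rps20 and Rps9. Rplp1 had a region 4677 bp out with peaks in all 6 libraries of the Mettl3 comparison, from 2.36 to 7.61, and in none of the 4 Ythdc1 libraries.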

How the data were processed

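The data were m6A immunoprecipitation peak lists of 10 libraries, and the 10 inputs were not analysed here. The submitters' processing notes name Trimmomatic 0.38, CASAVA, MACS2, HISAT2 2.1.0 and mm10. How MACS2 was run, and whether inputs entered it, was not given. The deposited narrowPeak lists, called per library and strand, give for each peak a display score, a fold enrichment (a ratio), both p-value and q-value as −log10, and the summit. By the values, no deposited peak was under 150 bp or below a −log10 q of 2. Reads per library are unknown. From the deposited fold and p-value a Poisson pile-up and background were solved. In each library 100% of downstream peaks came out at whole reads within 0.002 on the −log10 scale. Background shares of distal and 3' UTR peaks used only the peaks that were solved, which were not counted.

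Summits were placed on GENCODE M21 (55450 genes), and 1596 of the 1620 genes with a region matched RefSeq. Peaks on other contigs, 17 to 35 per library, were left out. Peaks were merged per strand at 1 bp of overlap over the libraries compared. Distances run from the gene's annotated end to the summit. Tests were two-sided exact permutation tests over libraries with Benjamini-Hochberg adjustment over 4 comparisons per measure. Tools were Python 3.11.15, numpy 2.4.6, pandas 2.3.3 and scipy 1.17.1. The classification and the calls were tested on simulated peaks.

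The members, lists and tests were chosen with earlier results of these data known. The text names the genes of the 8 lost, 8 gained and 8 kept regions of highest fold per comparison (the smaller control fold, or the smallest knockout fold for gained), the genes with the most regions, and members of the lists. Others are said to be named after their values were seen. One gene is not reported here by name. The ratio of downstream to distal peaks was added after seeing the data. Alternatives were a 5 kb window, 5 kb from any start, a −log10 q of at least 5, the 30000 peaks of highest q, 50 bp of overlap, stricter region membership, height-restricted absence, a replicate block, and each library left out.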

Additional observations from a re-analysis of the deposited data

Results flagged for a closer look

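The median distance of downstream summits moved in opposite directions in the Mettl3 knockouts. The mean of the 2 KO1 libraries differed from that of the Mettl3 control by -85.75 bp, nearer the gene end, and the mean of the 2 KO2 libraries lay 343.5 bp farther out. Each library of KO1 was below both controls and each library of KO2 above both, which is what drew attention to it. The difference between the knockouts was not tested. The separation did not hold everywhere. At 5 kb from any start KO1 differed by -45.25 bp, at a −log10 q of at least 5 by -60 bp and among the 30000 peaks of highest q by -86.5 bp, each with libraries that overlapped the control, and within 5 kb of the gene end KO2 differed by 29.5 bp, again with overlap. Outside RefSeq genes, an alternative chosen after seeing the data, the KO1 value was -6.25 bp and the KO2 value 447 bp.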

How the results depend on the processing

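Over the alternatives run, 327 recomputed values kept their direction or stayed within 1.5 times the reported count, 10 counts moved farther and 5 differences changed sign. With a 5 kb window the median distance of the Mettl3 knockouts minus control was -8.75 bp, and 123 regions were gained in the cKO, against 246. With the 30000 peaks of highest q, KO2 minus control was 0.034 for the log2 strand ratio and 0.459 points for the exon share, against -0.025 and -0.57. At 5 kb from any start 12 regions were gained in the Mettl3 knockouts. Several differences kept their sign but moved by more than 1.5 times. For the 4 Mettl3 knockout libraries together and for the cKO their values stand beside the results, except the Mettl3 median distance, which was 220.375 bp outside RefSeq genes, against 128.875 bp. Among the highest 2 of 5 height bins, the gap in absence between downstream and 3' UTR regions was 5.76 points in the Mettl3 knockouts, against 13.9, and 4.30 points in the cKO, against 10.5, and the gap to distal regions in the cKO was 2.80 points, against 14.7. The causes were not tested.

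Leaving out single libraries moved the region counts, since fewer libraries have to lack or hold a peak. Lost regions in the Mettl3 comparison ranged from 219 to 353 and gained ones from 27 to 50. They were 353 and 336 lost, and 41 and 50 gained, without control replicate 1 and 2, and 40 and 36 gained without replicate 2 of KO1 and of KO2. Lost regions in the cKO ranged from 222 to 325, with 283 and 325 without control replicate 1 and 2. The KO2 log2 strand ratio ranged from -0.076 to 0.026 and was 0.026 without KO2 replicate 1. The KO2 exon share ranged from -1.27 to 0.132 and was 0.132 without control replicate 2.

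The labels give replicate numbers and do not say whether same-numbered libraries belong together. Over 575 regions in the Mettl3 and 552 in the Ythdc1 comparison, same-numbered libraries deviated together with correlations of -0.039 to 0.029. These are the numbers of kept regions, with a peak in every library compared. No sign of pairing was seen there, and pairing in the presence of peaks was not tested. With the replicate block, the share of downstream peaks in Mettl3 knockouts differed by -0.437 points with an exact permutation p of 0.111, the smallest possible under it. A region without a peak may hold a signal below the calling threshold. Precision is limited by 2 libraries per group.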
